A study of Mus musculus with 4 samples.

Results

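Autosomal cytosine positions with low methylation in mouse induced pluripotent stem cells (iPSCs) and high methylation in primary midbrain neurons are described here. They lay away from dense groups of measured CpGs. A position was eligible if it had at least 10 calls, methylated and unmethylated together, in each of the libraries of iPSCs, iPSC-derived dopaminergic (iPSC-DA) neurons and primary mesodiencephalic dopaminergic (mdDA) neurons. Its methylation level is the percent of its calls that were methylated. Of 726844 eligible positions, 495474 (68.2%) lay in runs of at least 10 eligible positions with gaps under 100 bp, and these were set aside, which left 231370. Among those, 77141 were under 20% in iPSCs, and 6888 of them were at 80% or more in mdDA neurons. These 6888 positions are called newly methylated below. They were chosen by their levels in iPSCs and mdDA neurons, so their values in these 2 libraries are a description and support nothing further. The iPSC-DA library entered only through its minimum of 10 calls, and the library of NESTIN-GFP precursors did not enter at all. How these 2 libraries stood at the newly methylated positions is the question addressed.

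DNA methylation at CpG sites is laid down by de novo methyltransferases and copied at each cell division by a maintenance enzyme. In mammalian somatic cells most CpGs outside CpG islands are methylated, whereas CpG islands, which often hold promoters, mostly stay free of it. Cells leaving pluripotency gain methylation at many sites, and post-mitotic neurons such as the mdDA neurons of the ventral midbrain, the dopamine neurons affected in Parkinson's disease, carry a somatic pattern. Bisulfite sequencing reads methylated and hydroxymethylated cytosines alike, so that the levels below are the sum of both.

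Methylation was measured by reduced representation bisulfite sequencing (RRBS), in which genomic DNA is cut with MspI at CCGG sites and short fragments are sequenced after bisulfite treatment. There were 4 libraries, 1 for each condition. The iPSCs carried Pitx3 Gfp/+ and, by the study's methods, came from fibroblasts of mouse embryos reprogrammed with retroviral Oct4, Klf4, Sox2 and cMyc. The iPSC-DA neurons, also Pitx3 Gfp/+, were differentiated on stromal cells for about 4 weeks and sorted for GFP, which reports the dopamine neuron factor PITX3. The mdDA neurons were sorted by the same reporter from Pitx3 Gfp/+ embryos at E14.5 (embryonic day). The precursors carried Nestin Gfp/+, came from a separate iPSC line and were collected after 14 days of differentiation. Their label reads Nestin-GFP neurons, while the methods describe precursors positive for NESTIN, an intermediate filament of neural precursors. No source used here ties an iPSC library to that line, and the mdDA neurons did not descend from any cultured iPSC, so that "newly methylated" names a difference between libraries and not a change followed in time. With 1 library per condition there is no replicate error and no test. The 95% confidence intervals (CI, Wilson) cover counting error only. They are too narrow where positions share reads or reads are PCR copies.

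The libraries held 31419979 to 79648099 calls over 1328656 to 2550167 listed positions, and the NESTIN-GFP library was the shallowest. At the newly methylated positions the median number of calls was 59 in iPSCs, 65 in iPSC-DA neurons, 60 in mdDA neurons and 31 in NESTIN-GFP precursors. A NESTIN-GFP level was used where it rested on at least 5 calls, which held at 6493 (94.3%) of the 6888 positions. Calls on chromosome 10 were more numerous in iPSC-DA than in mdDA neurons by 0.41 on the log2 scale, against -0.11 to 0.14 on the other autosomes.

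The newly methylated positions were 8.93% (CI 8.73% to 9.13%) of the 77141 positions under 20% in iPSCs, a share fixed by the rule's own contrast. A larger number, 55534, were also under 20% in mdDA neurons, and 14719 lay between 20% and 80%. The opposite pattern was scarcer. Of 56177 positions outside runs at 80% or more in iPSCs, 638 (1.14%, CI 1.05% to 1.23%) were under 20% in mdDA neurons. Inside runs, which hold most of the CpG-dense DNA measured, 2793 of 453881 positions under 20% in iPSCs were at 80% or more in mdDA neurons, or 0.615% (CI 0.593% to 0.639%). All these shares rest on the iPSC and mdDA levels that the rule used, so they are a description only. Positions under 20% in iPSCs were at 80% or more in mdDA neurons more often outside runs than inside them.

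Levels at the newly methylated positions were high in both differentiated cultures. The median was 12.4% in iPSCs (quartiles 6.79% and 16.7%) and 92.9% in mdDA neurons (87.8% and 97.0%), as the rule set. In iPSC-DA neurons it was 90.3% (79.5% and 95.9%). NESTIN-GFP precursors, at 14 days, had a median of 96.3% (88.9% and 100%). The means were 11.3% in iPSCs, 90.9% in NESTIN-GFP precursors, 85.1% in iPSC-DA and 92.2% in mdDA neurons. Both cultures thus stood near the primary neurons and far from the iPSCs at most of these sites.

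**Figure D1:**
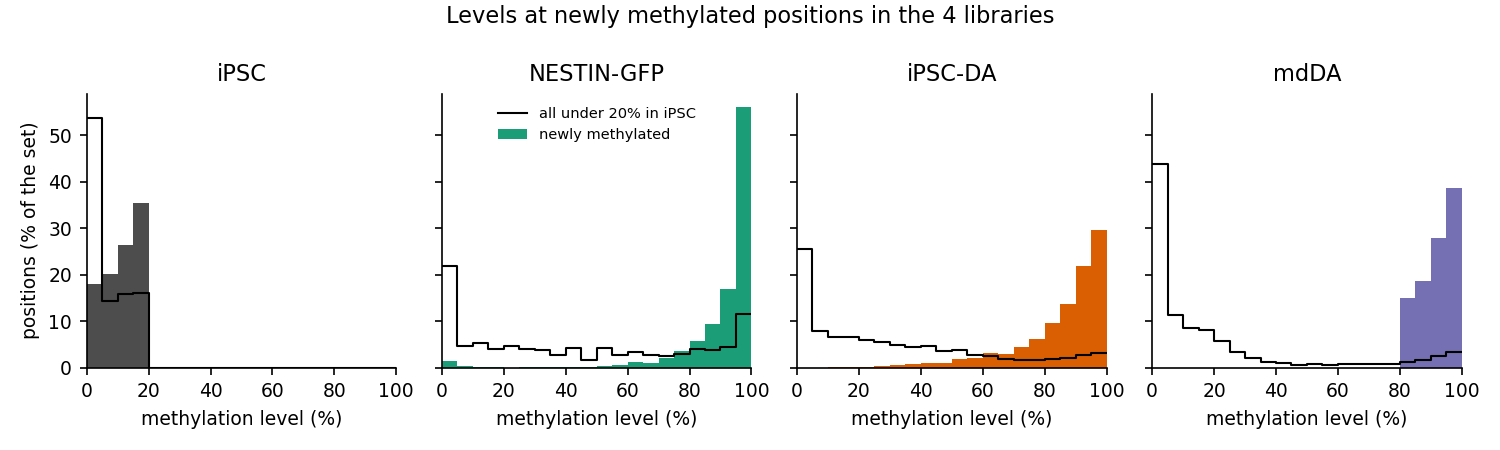
Share of positions, in percent of the set, by methylation level in percent in each of the 4 libraries, with filled bars for the newly methylated positions and a black line for all positions outside runs under 20% in iPSCs; the levels in iPSCs and mdDA neurons were set by the rule. NESTIN-GFP precursors and iPSC-DA neurons peak near full methylation, with medians of 96.3% and 90.3%, while the black line peaks near 0% in each library.

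iPSC-DA neurons were at 80% or more at 5148 of the 6888 newly methylated positions, or 74.7% (CI 73.7% to 75.8%). The same held at 9.85% of all positions outside runs that were under 20% in iPSCs, and at 44.3% of all positions outside runs. A further 16.8% of the newly methylated positions lay between 60% and 80%, 6.23% between 40% and 60%, and 1.86% between 20% and 40%. Only 25 positions (0.363%, CI 0.246% to 0.535%) were under 20% in iPSC-DA neurons, against 46.8% of all iPSC-low positions. Newly methylated positions under 80% in iPSC-DA neurons thus mostly lay at 50% to 80%. Under 50% were 302 positions (4.38%), against 75.8% of iPSC-low positions. The rule held mdDA levels at 80% or more and left iPSC-DA levels free, so lower iPSC-DA values here are partly built in. Among all iPSC-low positions, those at 80% or more were not fewer for the culture, at 9.85% for iPSC-DA against 8.93% for mdDA neurons.

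In NESTIN-GFP precursors 5728 of 6493 newly methylated positions were at 80% or more, or 88.2% (CI 87.4% to 89.0%), against 24% of all iPSC-low positions and 70.2% of all positions outside runs. At 90% or more were 73.0% of the positions in NESTIN-GFP precursors, against 51.5% in iPSC-DA neurons. The low tail was different in kind. Under 20% in NESTIN-GFP precursors were 138 positions (2.13%, CI 1.80% to 2.51%, against 36% of iPSC-low positions and 11.9% of all positions outside runs), more than the 23 positions between 20% and 40%, and these 138 are taken up separately below.

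The rule demanded high methylation in mdDA neurons, and other positions meeting that demand give a scale for the values in culture. At 49826 positions that were at 80% or more in both iPSCs and mdDA neurons, the median was 93.8% in iPSC-DA neurons, with 79.2% of positions at 80% or more, and 100% in NESTIN-GFP precursors, with 97.5% at 80% or more. At 59763 positions between 20% and 80% in iPSCs and at 80% or more in mdDA neurons, the medians were 91.7% and 98.2%, and 74.7% and 96.5% of positions were at 80% or more. In iPSC-DA neurons the newly methylated positions (90.3%, with 74.7% at 80% or more) were therefore within a few points of sites that were already methylated in iPSCs. In NESTIN-GFP precursors their share at 80% or more, 88.2%, was below both.

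The newly methylated positions also differed from other positions with the same level in iPSCs. Among positions at 10% to 20% in iPSCs, the 4254 newly methylated ones had medians of 90.9% in iPSC-DA neurons and 97.3% in NESTIN-GFP precursors. The 10443 positions of the same iPSC range that were under 20% in mdDA neurons had 25.5% and 31.8%. The 9809 that were at 20% to 80% in mdDA neurons had 40.7% and 68.8%. The order of the 3 classes in mdDA neurons was thus the order in both cultures.

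The rule's thresholds did not mark a step. Just inside the iPSC threshold, at 18% to 20%, 944 positions had medians of 91.8% in iPSC-DA neurons and 98.2% in NESTIN-GFP precursors. The 1210 positions just outside it, at 20% to 22%, had 90.9% and 97.9%. At the mdDA threshold, 413 positions at 80% to 82% had medians of 81.3% and 93.3%, and 248 positions at 78% to 80% had 79.2% and 93.1%.

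At the same positions, NESTIN-GFP precursors were more often the higher of the 2 cultures. Both were at 80% or more at 4495 of 6493 positions (69.2%, CI 68.1% to 70.3%), against 10.3% of all iPSC-low positions and 46% of all positions outside runs. NESTIN-GFP precursors alone were at 80% or more at 1233 (18.99%), and iPSC-DA neurons alone at 376 (5.79%). At positions that were at 80% or more in both iPSCs and mdDA neurons these shares were 19.7% and 1.47%. The difference of NESTIN-GFP minus iPSC-DA had a median of 4.41 percentage points (quartiles -0.841 and 13.04). NESTIN-GFP was higher at 4330 positions, lower at 1748 and equal at 415.

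A gap of at least 20 points in favour of NESTIN-GFP was seen at 972 positions (14.97%, against 30.4% of iPSC-low positions and 28% of all positions outside runs). The opposite gap was seen at 332 (5.11%, against 12.8% and 5.39%). Positions already at 80% or more in iPSCs, and also in mdDA neurons, had 16.7% and 0.794%. Both shares of the newly methylated positions were thus under those of all iPSC-low positions, and the share with the reverse gap was close to that of all positions outside runs. The sets differed in depth, with a median of 31 NESTIN-GFP calls at newly methylated positions. It was 16 at all iPSC-low positions and 25 at all positions outside runs. Counting error is also smaller near 100% than at mid-range levels, so these shares do not measure how closely the cultures agreed. Across the 6493 positions the levels of the 2 cultures were weakly related (Pearson's r 0.262, Spearman's rho 0.256), where neighbouring positions share reads and most levels are crowded near 100%.

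**Figure D2:**
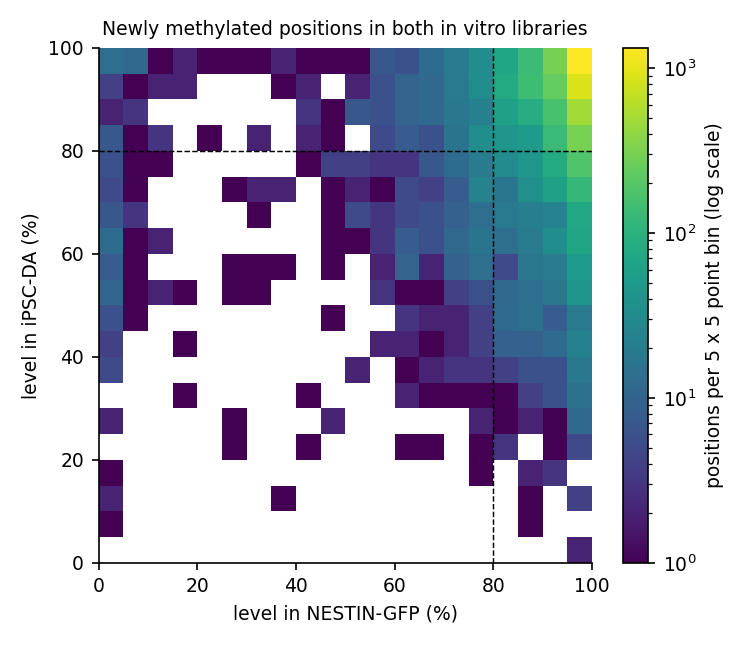
Methylation level in percent in NESTIN-GFP precursors (horizontal axis) and iPSC-DA neurons (vertical axis) at the 6493 newly methylated positions with at least 5 NESTIN-GFP calls; colours give the number of positions per bin of 5 by 5 points on a log scale, and dashed lines mark 80%. Most positions fill the upper right corner, 4495 of them at 80% or more in both, and a separate strip of 138 positions lies under 20% in NESTIN-GFP precursors at the left edge.

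The newly methylated positions were sorted by their level in iPSC-DA neurons to see what the low ones shared. The 302 positions under 50% had a median of 88.9% in NESTIN-GFP precursors, where 72.8% of them were at 80% or more. The 1438 positions at 50% to 80% had 92.6% and 76.7%, and the 5148 at 80% or more had 97.3% and 92.3%. Most sites that were low in iPSC-DA neurons were thus methylated in the precursors. Their mdDA medians were 87.5%, 90% and 94.0% in the same order, so the sites lowest in iPSC-DA neurons were also nearer to the rule's threshold in mdDA neurons. Lone positions, with no other newly methylated position within 100 bp, made up 46.7%, 45.1% and 28.4% of the 3 classes.

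The 25 positions under 20% in iPSC-DA neurons fell in 20 separate places and were shallow, with a median of 23 iPSC-DA calls and 18 mdDA calls. Of the 19 with at least 5 NESTIN-GFP calls, 14 were at 75% or more in NESTIN-GFP precursors and 4 were under 20%. With a minimum of 20 calls the share of newly methylated positions under 20% in iPSC-DA neurons was 0.158% instead of 0.363%.

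Distance from dense runs separated the newly methylated positions from those that stayed low. Their median distance to the nearest run was 20795.5 bp (quartiles 6635 and 60458.5 bp). Positions under 20% in both iPSCs and mdDA neurons had a median distance of 893 bp, and those at 80% or more in both had 61625.5 bp. Within 2000 bp of a run lay 11.5% of the newly methylated positions and 55.7% of those that stayed low. At 10000 bp or more lay 66.2% and 32.6%.

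The share of iPSC-low positions that were newly methylated was 0.925% (CI 0.819% to 1.05%) at 100 to 500 bp from a run and 5.41% (CI 4.98% to 5.87%) at 500 to 2000 bp. It was 15.04% at 2000 to 10000 bp, 16.1% at 10000 to 50000 bp and 14.7% at 50000 bp or more. The share thus reached a plateau beyond 2000 bp. Among the newly methylated positions, the level in iPSC-DA neurons followed distance less closely. The share at 80% or more in iPSC-DA neurons was 80.4%, 76.1%, 80.4%, 76.8% and 66.5% over the same 5 ranges, lowest for the 1962 positions farthest from runs. Those had a median of 87.1% in iPSC-DA neurons and 94.4% in NESTIN-GFP precursors.

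Local density of measured positions went opposite ways for the share newly methylated and for the level in iPSC-DA neurons. With 0 other eligible positions within 100 bp, 15.1% of iPSC-low positions were newly methylated, and with 7 or more, 4.43%. Of the newly methylated positions with 0 such neighbours, 66.5% were at 80% or more in iPSC-DA neurons, and of those with 7 or more, 83.8%. In NESTIN-GFP precursors the corresponding shares were 96.2% and 90.6%, from medians of 23 and 41 NESTIN-GFP calls. There the share did not change steadily, being 87.9% at 1 or 2 neighbours, 86.9% at 3 or 4 and 87.3% at 5 or 6. The lone positions were thus less often highly methylated than the crowded ones in iPSC-DA neurons, and more often in NESTIN-GFP precursors.

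Depth changed these shares less. By the lowest number of calls among the 3 libraries of the rule, the share of iPSC-low positions that were newly methylated was 9.88% at 10 to 19 calls, 9.31% at 20 to 49, 9.34% at 50 to 99 and 6.90% at 100 or more. The share of newly methylated positions at 80% or more in iPSC-DA neurons was 74.0%, 73.2%, 76.7% and 75.05%.

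**Figure D3:**
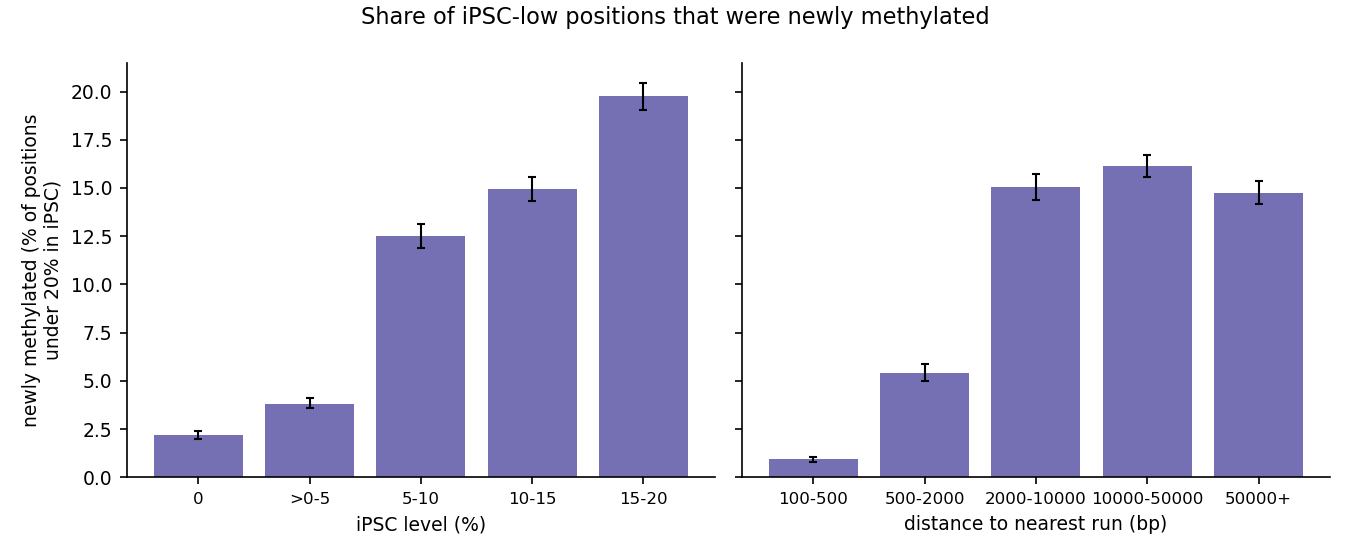
Share in percent of positions under 20% in iPSCs that were newly methylated, by level in iPSCs (left) and by distance to the nearest run in bp (right); bars start at 0 and error bars are Wilson 95% intervals, which cover counting error only. The share is 2.17% at an iPSC level of 0 and 19.7% at 15% to 20%, 0.925% next to runs and 14.7% to 16.1% beyond 2000 bp.

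Residual methylation in iPSCs went with the outcome in mdDA neurons. The share of iPSC-low positions that were newly methylated was 2.17% (CI 1.98% to 2.38%) at exactly 0% in iPSCs, 3.82% above 0% and up to 5%, 12.5% at 5% to 10%, 14.9% at 10% to 15% and 19.7% (CI 19.1% to 20.5%) at 15% to 20%. The rule used both of these levels, so this is a description of the chosen set. In iPSC-DA neurons, which the rule's thresholds left free, the share of newly methylated positions at 80% or more over the same 5 ranges was 61.9%, 70.4%, 75.6%, 76.1% and 77.0%. In NESTIN-GFP precursors it was 59.2%, 77.5%, 88.4%, 91.7% and 94.0%. The 402 positions at 0% in iPSCs with a NESTIN-GFP level included 104 of the 138 under 20% in NESTIN-GFP precursors. Without the 138, the shares at 80% or more in NESTIN-GFP precursors over the 5 ranges were 79.9%, 80.7%, 88.6%, 91.8% and 94.0%. The corresponding shares in iPSC-DA neurons, at positions with a NESTIN-GFP level, were 71.5%, 71.6%, 76.3%, 76.3% and 77.1%. With the 138 kept, they were 63.2% at 0% in iPSCs and 70.1% above 0% and up to 5%. Leaving positions out by their NESTIN-GFP level raises the NESTIN-GFP shares by construction. In iPSC-DA neurons the gap between 0% and the next range also narrowed. A lower share under 5% than above it was still seen in both cultures.

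Nearby cytosines were set beside the single positions. At 6275 of the 6888 newly methylated positions (91.1%) another eligible position lay 2 to 40 bp away, within the length of 1 read of 40 bases. The calls of a position's neighbours were pooled, so their average level, here and below, is weighted by calls. This level had a median of 17.4% in iPSCs, 95.8% in NESTIN-GFP precursors, 91.1% in iPSC-DA and 93.7% in mdDA neurons. The neighbours were under 20% in iPSCs beside 59.3% of the positions, at 20% to 50% beside 36.7%, and at 50% or more beside 251 positions (4%). They were at 80% or more in mdDA neurons beside 89.3%. These neighbours included other newly methylated positions, so their levels in iPSCs and mdDA neurons were partly set by the rule. As a description of the chosen set, most positions had neighbours under 20% in iPSCs, and most had neighbours at 80% or more in mdDA neurons. A small group stood out from methylated surroundings.

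That small group held most of the positions that were unmethylated in the precursors. Where neighbours averaged 0% to 20% in iPSCs, 13 of 3584 newly methylated positions (0.363%) were under 20% in NESTIN-GFP precursors. Where they averaged 20% to 40%, it was 10 of 1894 (0.528%), and at 40% to 60%, 24 of 288 (8.33%). At 60% to 80% it was 32 of 65 (49.2%), and at 80% to 100%, 55 of 68 (80.9%). The median in iPSC-DA neurons over these 5 classes was 91.2%, 90%, 87.5%, 82.6% and 66.7%.

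The 138 positions under 20% in NESTIN-GFP precursors were read as deeply as the rest. They had a median of 34 NESTIN-GFP calls (5 to 126), against 31 at the other 6355, and 84 of them were at exactly 0%. In iPSCs 104 were at 0% and 133 were under 5%. In mdDA neurons their median was 94.6%. In iPSC-DA neurons it was 66.7% (quartiles 54.6% and 92.3%), with 52 positions at 80% or more, 62 at 50% to 80%, 20 at 20% to 50% and 4 under 20%. Their neighbours, present at 134 of them, had median levels of 74.1% in iPSCs, 95.3% in NESTIN-GFP precursors, 91.1% in iPSC-DA and 95.8% in mdDA neurons. At 108 of the 134 (80.6%) the neighbours were at 80% or more in the very library in which the position itself was under 20%. Neighbours of the 6355 newly methylated positions at 20% or more in NESTIN-GFP precursors had a median of 16.8% in iPSCs. Beside 5274 of the 5758 such positions with neighbours (91.6%), the neighbours were at 80% or more in NESTIN-GFP precursors. Methylated neighbours in that library were thus usual and not particular to the 138.

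These 138 positions were spread over 127 separate places but not evenly over chromosomes. Of them, 128 lay on chromosomes 1, 2, 3, 5, 11 and 12, where they were 5.57% (CI 4.71% to 6.59%) of 2296 newly methylated positions with a NESTIN-GFP level. Chromosomes 7, 13, 15 and 16 held 10 of 1356 (0.737%). The other 9 autosomes held 0 of 2841, which allows a share of up to 0.106% by counting error. Chromosomes were grouped after these values were seen. The densest stretch of 1 Mb lay on chromosome 2 and held 10 newly methylated positions, 9 of them with a NESTIN-GFP level. Of these, 6 were under 20% in NESTIN-GFP precursors, between 119122512 and 119864816, and the stretch was singled out for that number. The 6 positions were at 0% to 2.56% in iPSCs, 0% to 13.3% in NESTIN-GFP precursors, 54.5% to 100% in iPSC-DA neurons and 89.7% to 100% in mdDA neurons. At position 119156776, for example, 0% of 60 iPSC calls, 0% of 23 NESTIN-GFP calls, 62.3% of 61 iPSC-DA calls and 93.6% of 47 mdDA calls were methylated, while its neighbours averaged 94.2% in iPSCs and 100% in NESTIN-GFP precursors. The 6 were not alike in this, as 1 had no neighbour, and over the other 5 the neighbours averaged 12.7% to 94.2% in iPSCs and 25% to 100% in NESTIN-GFP precursors, with 4 of the 5 at 80% or more in the latter.

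A cytosine replaced by another base in a cell line is not a CpG there, and a change to thymine is counted as unmethylated by bisulfite sequencing. Whether any of the 138 positions carried such a sequence difference between the mice behind the libraries was not tested. Without the 251 positions whose neighbours were at 50% or more in iPSCs, the share under 20% in NESTIN-GFP precursors was 0.558% instead of 2.13%, and the share at 80% or more was 89.8% instead of 88.2%.

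**Figure D4:**
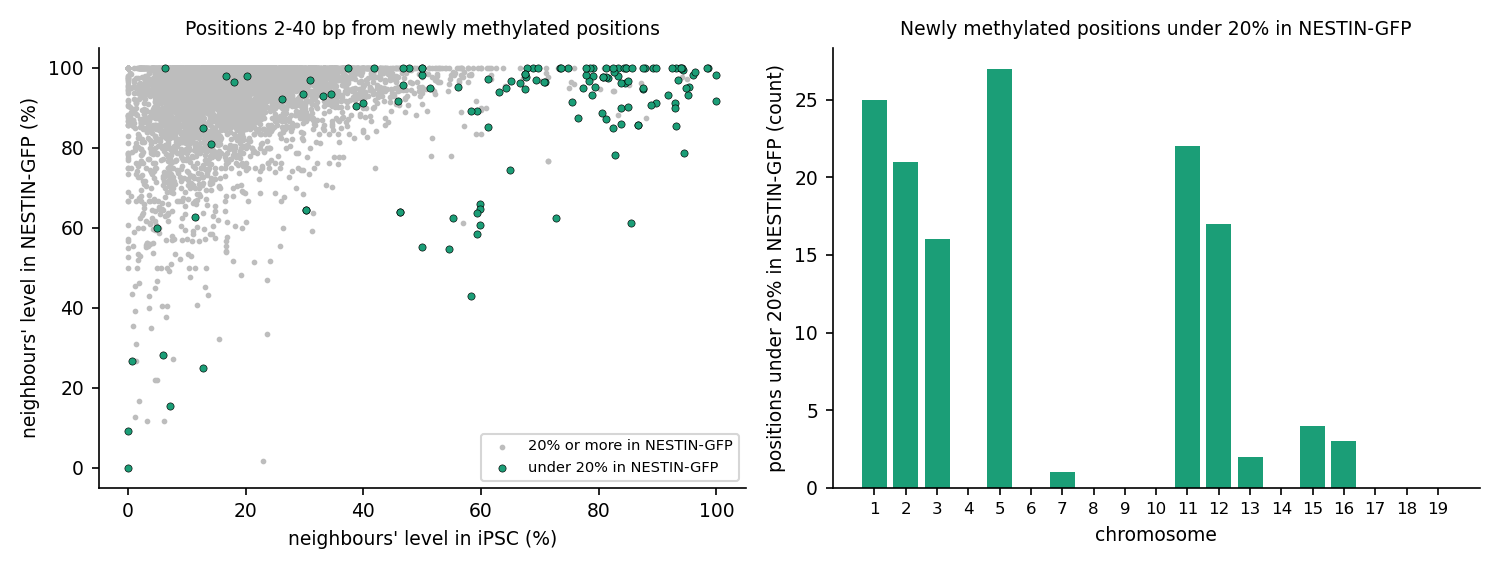
Left, level in percent of the pooled calls 2 to 40 bp from each newly methylated position, in iPSCs (horizontal axis) and NESTIN-GFP precursors (vertical axis). Points are green where the newly methylated position itself was under 20% in NESTIN-GFP precursors and grey where it was not. Right, number of newly methylated positions under 20% in NESTIN-GFP precursors on each autosome. Most green points lie to the upper right, where the neighbours were methylated in both libraries, and 128 of the 138 positions lie on chromosomes 1, 2, 3, 5, 11 and 12.

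Across the 19 autosomes the number of newly methylated positions ranged from 185 on chromosome 14 to 593 on chromosome 7. Their share of iPSC-low positions ranged from 6.98% (chromosome 14) to 11.5% (chromosome 10). The share at 80% or more in iPSC-DA neurons ranged from 65.5% on chromosome 12 to 82.3% on chromosome 7, and in NESTIN-GFP precursors from 73.1% on chromosome 12 to 92.2% on chromosome 17. Chromosome 12 was thus the lowest in both cultures, with medians of 86.4% and 92.3%. Chromosome 10, with its excess of iPSC-DA calls, had 77.4% of positions at 80% or more in iPSC-DA neurons.

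Newly methylated positions often lay together. Joined across gaps under 100 bp they formed 3831 blocks, of which 2252 (58.8%) were a single position, 820 held 2 and 373 held 3. The remaining 386 blocks held 4 to 9 positions each, 1877 in all, over a median of 67.5 bp and at most 203 bp. With the calls of a block's positions pooled, the median over these 386 blocks was 91.5% in iPSC-DA neurons, and 329 blocks (85.2%) were at 80% or more, while 9 were under 50%. In NESTIN-GFP precursors 361 blocks could be measured, with a median of 94.6%, and 339 (93.9%) were at 80% or more and 2 under 50%. In iPSC-DA neurons the SD within a block had a median of 5.47 points, and the SD between block means was 10.6 points. These are not like measures, as a median of SDs stands beside a single SD. Positions of a block can also share reads, which makes them alike.

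Coordinates follow the deposited positions, whose chromosome lengths fit the mouse build NCBIM37 (mm9). Genes, exons and sequences at these places were not analysed here. There were 4 blocks of 9 positions and 15 of 8. Over these 19 the pooled iPSC-DA level ranged from 72.5% to 99.03%, with a median of 92.1%, and 16 were at 80% or more. The 4 blocks of 9, and the 4 blocks of 8 with the most mdDA calls, are given here. At chr1:63247011-63247132, 9 positions had a pooled level of 3.05% in iPSCs (CI 2.20% to 4.22%), 78.8% in NESTIN-GFP precursors (70.3% to 85.3%, from 113 calls), 92.1% in iPSC-DA (90.6% to 93.4%) and 96.0% in mdDA neurons (95.02% to 96.86%). In iPSCs 7 of the 9 positions were at 0%, and the first and last were at 11.2% and 13.7%. All 9 were between 83.8% and 96.8% in iPSC-DA neurons, so the stretch was methylated along its whole measured length.

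At chr8:23982422-23982537, 9 positions had 8.76% in iPSCs, 95.3% in NESTIN-GFP precursors, 96.7% in iPSC-DA and 91.9% in mdDA neurons, and the single positions of the 2 cultures ranged from 80.6% to 100% and from 91.7% to 100%. A block of 9 positions on chromosome 18 had 10.3%, 95.5%, 95.3% and 94.8% in the same order. Both blocks were at least as methylated in iPSC-DA neurons as in the primary ones.

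At chr5:109985053-109985116, by contrast, 9 positions had 3.67% in iPSCs, 85.4% in NESTIN-GFP precursors (CI 82.9% to 87.6%), 72.5% in iPSC-DA (70.5% to 74.4%) and 92.3% in mdDA neurons (91.1% to 93.3%). Its single positions in iPSC-DA neurons ran from 59.0% to 80.5%, each under its own mdDA value. The 8 positions at chr2:129280563-129280704 had 10.7% in iPSCs, 79.1% in NESTIN-GFP precursors, 77.4% in iPSC-DA and 89.0% in mdDA neurons. There the single positions in iPSC-DA neurons ran from 55.4% to 94.5%.

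Of the other 3 described blocks of 8 positions, chr3:53225806-53225851 had 7.78% in iPSCs, 92.4% in NESTIN-GFP precursors, 87.4% in iPSC-DA and 90.2% in mdDA neurons. At chr5:123607350-123607417 the levels were 9.39%, 98.8%, 94.2% and 95.3%, and at chr7:80554208-80554271 they were 3.60%, 95.1%, 92.1% and 93.6%. In these 3 blocks iPSC-DA neurons were thus within a few points of mdDA neurons.

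The 3 blocks of at least 4 positions that were lowest in iPSC-DA neurons were also the 3 in which NESTIN-GFP precursors exceeded iPSC-DA neurons the most. At chr15:25637106-25637148, 4 positions had 9.36% in iPSCs, 94.1% in NESTIN-GFP precursors (CI 90.6% to 96.4%), 24.9% in iPSC-DA (20.45% to 29.997%) and 88.5% in mdDA neurons (84.4% to 91.6%). At chr4:149689581-149689613, 6 positions had 7.23%, 98.9%, 33.9% and 98.5%, and at chr10:66546563-66546595, 4 positions had 4.27%, 94.9%, 34.4% and 88.6%. These stretches were methylated in the precursors and in the primary neurons but had under 50% in iPSC-DA neurons, with gaps to NESTIN-GFP of 69.2, 65.0 and 60.5 points.

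On chromosome 4 the 6 positions were at 22.2%, 29.0%, 33.7%, 30.5%, 32.4% and 52.3% in iPSC-DA neurons from 135 to 174 calls each. Every one of them was at 97.3% or more in mdDA neurons. The low level there was therefore seen along the whole block and not at a single position. Positions this close can share reads, so they are not separate observations. NESTIN-GFP precursors had 12 to 16 calls at each of the 6 positions and were at 93.8% or more.

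**Figure D5:**
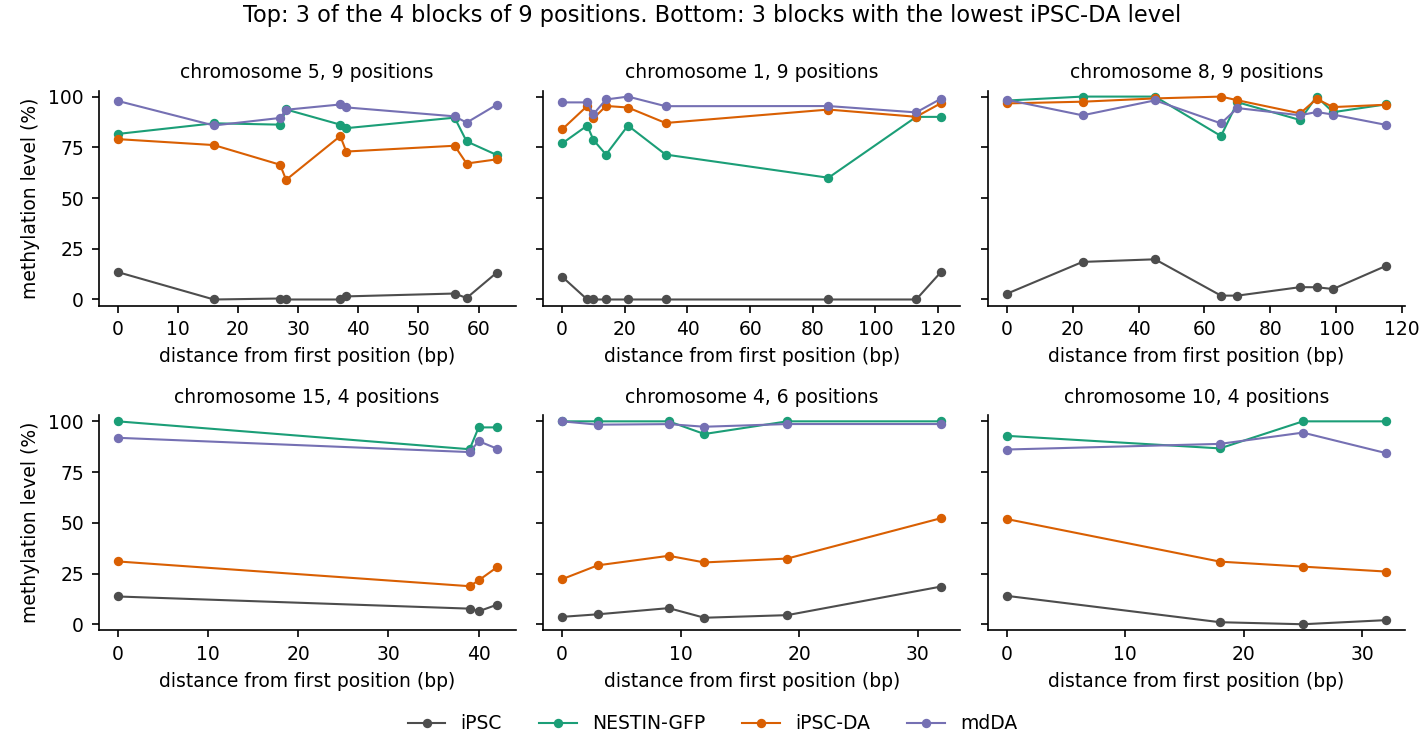
Methylation level in percent of each newly methylated position in the 4 libraries (colours) against the distance in bp from the first position of its block, for 3 of the 4 blocks of 9 positions (top) and the 3 blocks lowest in iPSC-DA neurons (bottom). In the top blocks both cultures lie far above iPSCs, and in the bottom blocks iPSC-DA neurons lie between 18.8% and 52.3% while NESTIN-GFP precursors and mdDA neurons stay above 80%.

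The reverse gap was smaller and lay in blocks with uneven positions. At chr12:19613247-19613278, 5 positions had 6.23% in iPSCs, 31.3% in NESTIN-GFP precursors (CI 22.9% to 41.1%, from 96 calls), 65.4% in iPSC-DA and 92.6% in mdDA neurons. At chr12:109154915-109154938, 5 positions had 6.46%, 48.5% (from 68 calls), 81.4% and 98.03%, and at chr7:31018500-31018559, 5 positions had 8.90%, 60.6%, 92.5% and 90.8%. The gaps of iPSC-DA over NESTIN-GFP were 34.1, 32.8 and 31.9 points.

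Within the block at chr12:109154915-109154938 the 5 positions were at 100%, 0%, 70%, 57.9% and 26.3% in NESTIN-GFP precursors, from 10 to 19 calls. The same positions were at 93.8%, 96.9%, 90.6%, 82.6% and 70.2% in iPSC-DA neurons. The low pooled value in the precursors was thus carried by some of the positions.

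Of the 361 blocks measured in NESTIN-GFP precursors, 4 were at 100% in iPSC-DA neurons, and the 3 with the most mdDA calls are given. At chr17:34020685-34020715, 4 positions had 15.1% in iPSCs, 96.7% in NESTIN-GFP precursors, 100% of 128 calls in iPSC-DA and 95.5% in mdDA neurons. At chr17:89003221-89003282 the levels were 5.56%, 90.3%, 100% of 48 calls and 94.6%, and at chr14:41730185-41730208 they were 9.48%, 100%, 100% of 132 calls and 96.1%. For the pooled calls the lower CI bounds of the iPSC-DA levels were 97.1%, 92.6% and 97.2%. The first block had 32 iPSC-DA calls at each of its 4 positions, and the last had 33. Positions this close can share reads, so these bounds are too narrow.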

How the data were processed

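RRBS data of 4 mouse libraries, 1 per condition, were used. The authors sequenced single reads of 40 bp. The submitters' processing notes name FastQC, Trim Galore 0.3.5 and Bismark 0.10.1, and the study's methods also name Bareback. For every cytosine position with a call the authors deposited the count of methylated and the count of unmethylated calls, not normalized, and the percent of calls methylated. Each strand of a CpG has its own position, and 430 newly methylated positions (6.24%) had their partner on the other strand among the eligible ones. Conversion failure or PCR copies, which were not removed by molecular identifiers, enter the levels as deposited. The genome build is not given in the sources used here, and chromosome 1 positions up to 197192264 fit NCBIM37 (mm9). Sequences and annotation of that build were not used here.

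Levels were recomputed from the deposited counts with Python 3.11.15, numpy 2.4.6, pandas 2.3.3 and scipy 1.17.1, and drawn with matplotlib 3.10.9. Runs and blocks were built from positions less than 100 bp apart. Blocks of at least 4 positions were named if they were among the 8 with the most positions (ties by mdDA calls), or the 3 lowest or 3 highest in iPSC-DA neurons, or the 3 with the largest difference between NESTIN-GFP precursors and iPSC-DA neurons in each direction. The rule, the positions and these comparisons were chosen with earlier results of these data known. No test was made, as each condition had 1 library. Shares have Wilson 95% intervals, and the limit that a count of 0 allows is 3 counts of the total. The alternatives were other minimum calls, levels and runs, merged strands, thinned calls and 1 value per block. Others left out the deepest positions, chromosome 10, or newly methylated positions whose neighbours were methylated in iPSCs. The code was tested on simulated data. Sex chromosomes were left out, and expression data of the study were not analysed here.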

Additional observations from a re-analysis of the deposited data

How the results depend on the processing

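No paired analysis was possible because each condition had 1 library. Of 99 values under 13 alternatives, 55 moved by less than their counting interval, or, for a number of positions, by less than 1.5 times, and 44 moved further, with no percentage crossing 50%. At under 10% in iPSCs and 90% or more in mdDA neurons, 1744 positions were newly methylated (3.31% of iPSC-low positions), with 77.9% at 80% or more in iPSC-DA neurons (median 91.6%), 82.4% in NESTIN-GFP precursors (median 95.5%) and 6.56% under 20% in NESTIN-GFP precursors. At 30% and 70%, 15044 positions (15.7%) had 70.9% at 80% or more in iPSC-DA neurons (median 89.6%), 90.1% in NESTIN-GFP precursors and 1.16% under 20% there. With runs of at least 5 positions left out, 3700 positions (12.5%) had 70.8% at 80% or more and 0.541% under 20% in iPSC-DA neurons, with medians of 88.8% and, in NESTIN-GFP precursors, 96.7%. With runs of at least 20 left out, 5.45% of iPSC-low positions were newly methylated, 76.7% of them at 80% or more in iPSC-DA neurons, with medians of 90.9% and 95.9%. A minimum of 5 calls gave 10.1% newly methylated, 73.6% at 80% or more and 0.547% under 20% in iPSC-DA neurons, and a NESTIN-GFP median of 96.9%. A minimum of 20 calls gave 7.73%, 0.158% under 20% in iPSC-DA neurons and a NESTIN-GFP median of 95.7%. Thinning to 10 calls gave 10.0%, 0.605% and 95.9%, and merging strands gave 8.45% newly methylated and a NESTIN-GFP median of 95%. With 1 value per block there were 3831 values, 15.4% of the number of blocks built in the same way from all iPSC-low positions. This is a ratio of blocks and not a share of positions. Of the 3831 values, 70.5% were at 80% or more in iPSC-DA neurons (median 88.4%). In NESTIN-GFP precursors they had a median of 95.5%, with 3.21% under 20%. Leaving out the newly methylated positions with methylated neighbours, an alternative chosen after seeing the data, left 6637. They were 8.60% of the iPSC-low positions, which were not reduced, so this fall was set by construction. In NESTIN-GFP precursors 89.8% of them were at 80% or more and 0.558% under 20%. The cause of these shifts was not tested. A level from 10 calls moves in steps of 10 points, which limits the placing of single positions near a threshold.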
